A study of Homo sapiens with 4 samples.

Results

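The interferon-stimulated genes described here are 47 named genes that cells switch on in response to interferon, together with the sensors of foreign nucleic acid and the transcription factors that drive them. They are a list of names with no threshold on a measured value, and all 47 were among the 18449 gene symbols of the count table. RNA was sequenced from BT-16 and CHLA-266, 2 established cell lines of the MYC subgroup of atypical teratoid rhabdoid tumor (AT/RT), an aggressive childhood brain tumor. The untreated groups were cells of each line grown without drug. The treated groups received 1 µM doxorubicin, then 5 µM etoposide 24 h later, then 1 µM vincristine after a further 24 h, and were collected from the surviving cells once these had grown back, about 35 days later. Doxorubicin and etoposide block topoisomerase II and damage DNA, and vincristine blocks microtubule assembly. A library was made once per cell line and condition, so the cell lines served as the 2 replicates of each condition, and all 4 libraries carried the same batch label. Counts and levels are given before and then after treatment. No interferon was added to any group, and surviving regrown cells cannot be told apart from cells changed by the drugs. With 2 libraries against 2, the *p* values measure only the spread between these libraries.

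Interferons are secreted proteins that warn cells of infection. Receptors at the cell surface pass the signal through the kinases JAK1 and TYK2 to a complex of transcription factors that holds STAT2 and IRF9 and binds a short DNA element, the interferon-stimulated response element (ISRE), in front of the target genes. The products of these genes block virus entry, degrade or sequester viral RNA, stop translation, and tag proteins with the ubiquitin-like modifier ISG15, and many of them also raise the sensitivity of the cell to further nucleic acid or interferon. DNA-damaging drugs are known to be able to engage the same genes in tumor cells through nucleic acid sensors.

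The core of the ISRE reads GAAA, then any 2 bases, then GAAA, or TTTC, any 2 bases, and TTTC when it lies on the other strand. In the promoter table of RefSeq (GRCh38.p14, 250 bases before to 50 bases after each gene start), 35 of the 47 genes had an entry. The core was present on either strand in 22 of these 35 promoters (62.9%), against 996 of all 27305 promoters of that length (3.65%) and 467 of the 14642 promoters that matched a gene of the count table (3.19%). It was found in 6 of the 11 promoters of members upregulated after treatment, in all 4 promoters of downregulated members, and in 12 of the 20 promoters of the others. A match is a string of letters and not a measured binding site. Positions are counted from the gene start in this promoter table, which can differ from the start in the gene coordinates given below. The *IFITM3* window ends at 321110, for example, while its gene coordinates on the minus strand reach 329475. Promoters of 4 members are printed to show how near the start the element lies in genes that moved in opposite directions, from 250 bases before to 25 bases after the start, with the matches in capitals. *IFIT1* and *MX1* were upregulated after treatment, and *IFITM3* and *OAS3* were downregulated. The IFIT1 window is chr10:89392373-89392647 on the plus strand, with matches on the other strand that begin at positions -116 and -103 from the gene start.
IFIT1: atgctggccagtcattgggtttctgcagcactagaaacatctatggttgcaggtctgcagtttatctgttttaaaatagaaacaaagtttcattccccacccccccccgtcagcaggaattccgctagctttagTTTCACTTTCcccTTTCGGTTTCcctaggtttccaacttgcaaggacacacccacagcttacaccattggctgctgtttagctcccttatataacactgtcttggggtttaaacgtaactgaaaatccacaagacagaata
The MX1 window is chr21:41420308-41420582 on the plus strand, with a match at position 12 after the start.
MX1: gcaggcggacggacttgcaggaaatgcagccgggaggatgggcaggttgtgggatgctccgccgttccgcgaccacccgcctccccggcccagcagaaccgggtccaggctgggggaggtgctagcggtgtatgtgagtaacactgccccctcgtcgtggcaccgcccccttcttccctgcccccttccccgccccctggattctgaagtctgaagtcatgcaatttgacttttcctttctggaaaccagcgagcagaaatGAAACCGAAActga
The IFITM3 window is chr11:320836-321110 on the minus strand, with matches at positions -52 and -35.
IFITM3: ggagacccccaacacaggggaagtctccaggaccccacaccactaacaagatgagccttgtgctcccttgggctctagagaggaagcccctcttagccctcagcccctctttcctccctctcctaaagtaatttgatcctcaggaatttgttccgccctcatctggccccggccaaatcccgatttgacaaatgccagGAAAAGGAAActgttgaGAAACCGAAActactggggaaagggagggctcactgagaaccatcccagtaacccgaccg
The OAS3 window is chr12:112938224-112938498 on the plus strand, with matches at positions -143 and -12.
OAS3: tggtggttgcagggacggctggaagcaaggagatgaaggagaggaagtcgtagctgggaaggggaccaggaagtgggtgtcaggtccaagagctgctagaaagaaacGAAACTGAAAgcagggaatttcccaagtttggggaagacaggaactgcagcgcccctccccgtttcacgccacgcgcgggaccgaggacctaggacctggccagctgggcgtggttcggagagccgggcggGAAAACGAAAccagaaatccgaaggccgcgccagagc

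**Figure D1:**
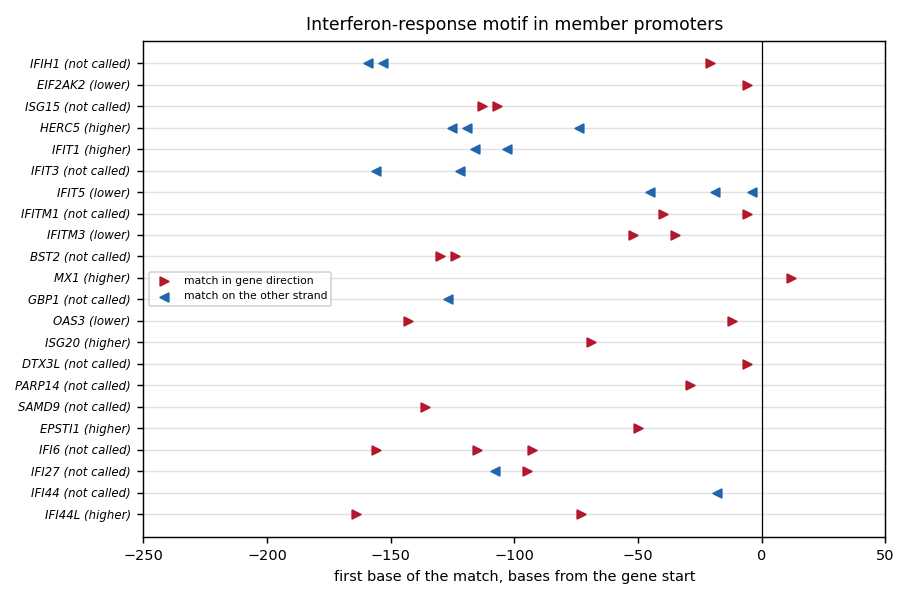
Position of each match to the ISRE core in the promoters of the 22 members that held it (horizontal axis, bases from the gene start at 0; 1 line per gene, with its call after treatment in brackets). Right-pointing triangles are matches in the direction of the gene and left-pointing triangles matches on the other strand. All matches but that of *MX1* began between position -164 and the start, in upregulated, downregulated, and uncalled genes alike.

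The total count was between 49849258 and 75087194 per library and smaller after treatment in both cell lines, while more genes were detected after treatment. Because levels near 0 matter for many interferon-stimulated genes, 413 olfactory and taste receptor genes, which such cells should not use, were taken as a background per kilobase of exon. The exon length of a gene was the union of all its annotated exons, which can exceed the length of a single transcript. Their median was 0 in both untreated libraries and rose above 0 in both treated libraries, to 4.19 counts per kilobase for BT-16 and 1.46 for CHLA-266. Their 95th percentile went from 6.57 to 41.3 counts per kilobase with treatment for BT-16, and from 7.81 to 28.3 for CHLA-266. By these levels the background was higher in both treated libraries. Of 365 receptor genes tested, 31 (8.49%) were called upregulated after treatment, a share below the 16.1% of all genes. Low counts were mostly even, which happens if each read of a pair adds to the count, and intervals and floors, which cover counting error only, would then be too narrow. The use of strand in counting is not stated, so reads of overlapping antisense genes cannot be told apart. *SMARCB1*, the gene lost in most AT/RT, was at 827 to 1394 counts over the 4 libraries, so its RNA does not mark the loss here, and *MYC* was at 6804 to 14275 counts.

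Between treated and untreated cells, 13 of the 47 interferon-stimulated genes were upregulated, 6 were downregulated, and 28 passed in neither direction at the threshold of 0.05 on the edgeR *p* value (quasi-likelihood test, Benjamini-Hochberg adjustment over 18066 genes). Over all genes tested, 16.1% were upregulated and 19.1% were downregulated. The share of upregulated members (13 of 47) was above that of all genes, and the share of downregulated members (6 of 47) below it. The members were chosen with earlier results of these data known, so these differences are a description only. The upregulated genes were *STAT2*, *HERC5*, *HERC6*, *IFIT1*, *IFIT2*, *MX1*, *MX2*, *ISG20*, *PARP9*, *XAF1*, *EPSTI1*, *IFI35*, and *IFI44L*. The downregulated genes were *EIF2AK2*, *USP18*, *IFIT5*, *IFITM2*, *IFITM3*, and *OAS3*. The median log2 fold change of the members was 1.18, against 0.24 over all genes and 3.99 over the receptor genes. At an unadjusted *p* value under 0.05 in edgeR, 22 members were higher and 6 lower, against 23.8% and 23.2% of all genes. With a library left out, 1 condition holds a single library, which is then assumed to vary like the other condition. Without treated CHLA-266 cells 6 of the 47 members were upregulated, a share under the 13.9% of all genes in that fit, so no excess of upregulated members was seen without that library (*HERC5*, *IFIT2*, *ISG20*, *PARP9*, *EPSTI1*, *IFI35*, and *IFI44L* were not called). Without untreated BT-16 cells 7 were upregulated and 3 downregulated, against 13.5% and 12.9% of all genes (*HERC5*, *HERC6*, *ISG20*, *PARP9*, *EPSTI1*, *IFI35*, *IFI44L*, *USP18*, *IFIT5*, and *OAS3* were not called, and *GBP2* was gained). *HERC6*, *MX1*, *MX2*, *PARP9*, and *XAF1* were not called without treated BT-16 cells, and *HERC6*, *PARP9*, *XAF1*, *IFI35*, *IFI44L*, and *EIF2AK2* were not called without untreated CHLA-266 cells.

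Genes of low and of higher level differed in direction, among the members as among all genes. By mean counts per kilobase over the 4 libraries, 24 members lay above the mean 95th percentile of the receptor genes, 21.0 counts per kilobase, and 23 lay at or under it. Treated values enter this mean, so the split is a description and not independent of the change. The 24 members above it held 6 upregulated and all 6 downregulated genes, with a median log2 fold change of -0.01. Of all 11403 genes above it, 11.5% were upregulated and 30.1% downregulated, with a median of -0.25. The 23 members at or under it held 7 upregulated and no downregulated genes, with a median log2 fold change of 2.92. Of all 6582 genes at or under it, 24.1% were upregulated and 0.106% downregulated, with a median of 3.10. The upregulated genes above the background were *STAT2*, *HERC6*, *IFIT1*, *IFIT2*, *ISG20*, and *IFI35*, and each of these also exceeded the 95th percentile of its own library in both treated libraries. The upregulated genes at or under it were *HERC5*, *MX1*, *MX2*, *PARP9*, *XAF1*, *EPSTI1*, and *IFI44L*, none of which exceeded the percentile in both treated libraries. In all, 19 members exceeded it in both treated libraries, against 57% of the genes with an exon length. When the pooled receptor background per kilobase was subtracted from every gene, an alternative added after seeing the data, 40 members could be tested. Then 7 members were upregulated, the same 6 and *PARP14*, against 13.5% of all genes, and 3 were downregulated, *IFITM2*, *IFITM3*, and *OAS3*, against 14.1% of all genes. Of the 7 upregulated genes at or under the background, 5 were tested and none passed (adjusted *p* = 0.118 to 0.520 in edgeR), and *EPSTI1* and *IFI44L* were left with 0 counts in every library.

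**Figure D2:**
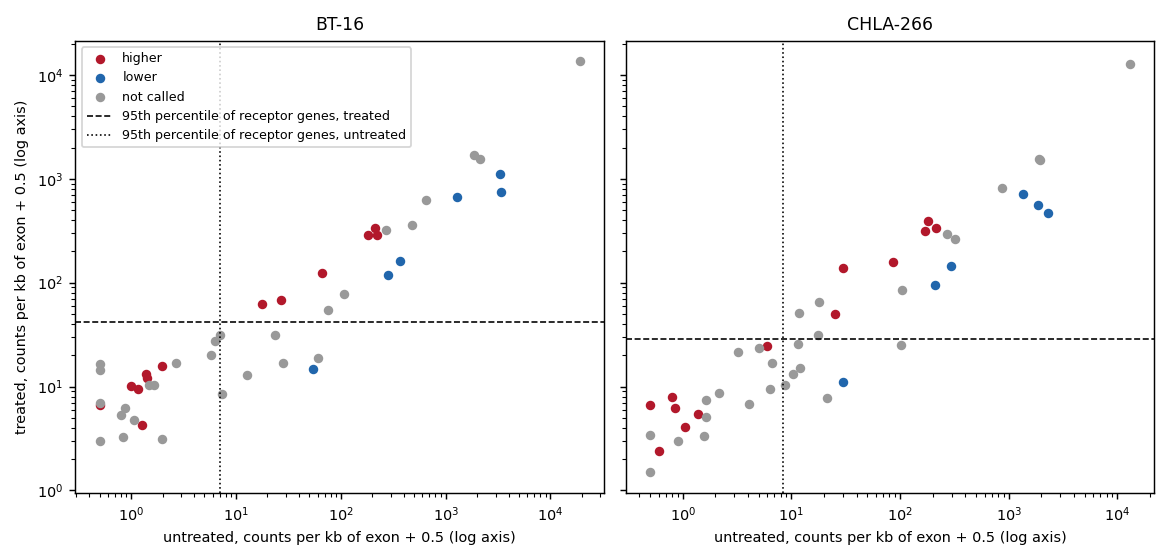
Counts per kilobase of exon of the 47 members in untreated (horizontal axis) and treated (vertical axis) libraries of BT-16 (left) and CHLA-266 (right), with 0.5 added and both axes logarithmic. Red points were upregulated, blue points downregulated, and grey points not called, and the dotted and dashed lines mark the 95th percentile of receptor genes in the untreated and the treated library. In each cell line 6 of the 13 red points lie above the dashed line and the other 7 below it, while 5 of the 6 blue points lie well above both lines.

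**Figure D3:**
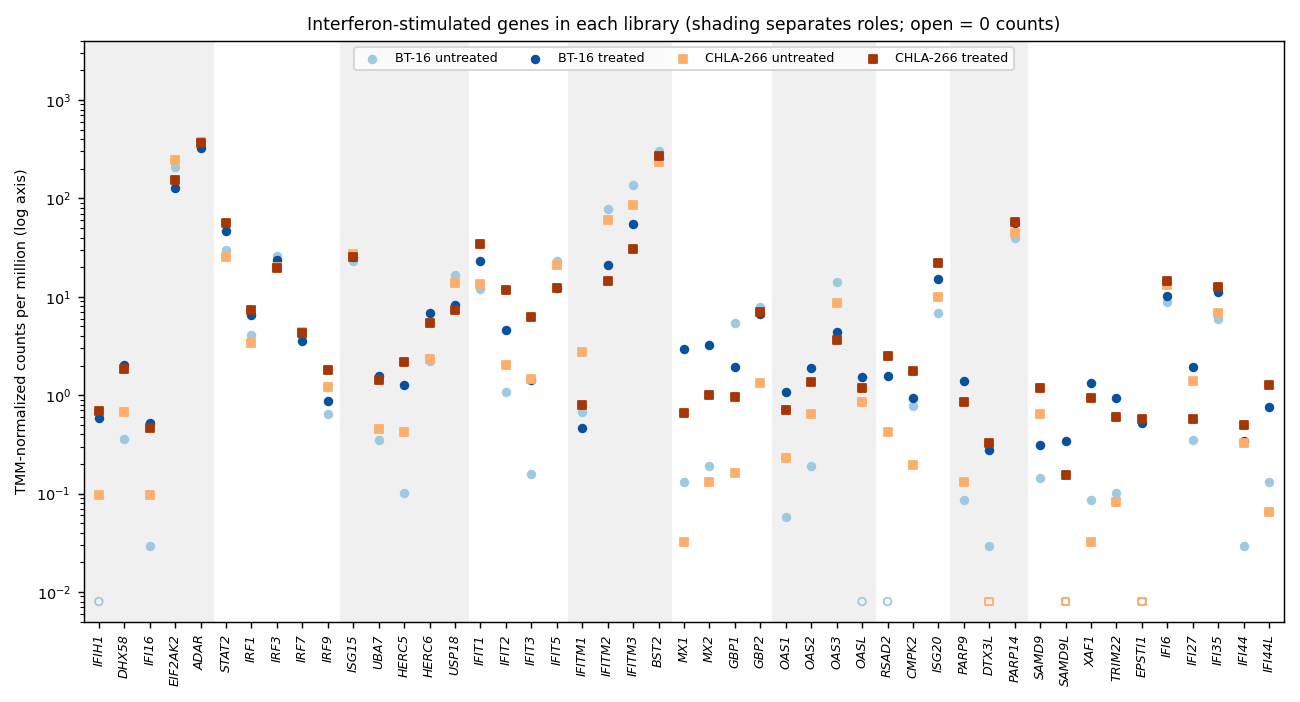
TMM-normalized CPM, the counts scaled to library size (logarithmic vertical axis) of the 47 members in each of the 4 libraries, ordered by role, with shading that separates the roles. Circles are BT-16 and squares CHLA-266, light symbols are untreated and dark symbols treated, and open symbols mark 0 counts. The dark symbols of *STAT2*, *IFIT1*, *IFIT2*, and *ISG20* lie above both light ones, and those of *IFITM2*, *IFITM3*, and *OAS3* lie below both.

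Sensors of RNA and DNA start the response. Of the 5 sensors and RNA-recognizing enzymes, *EIF2AK2* was downregulated and the other 4 were not called. *EIF2AK2* (ENSG00000055332, chromosome 2 of hg38, 37099210 to 37157522, minus strand) encodes PKR, a kinase that binds double-stranded RNA and stops translation. It was at 14259 counts before and 7298 after treatment for BT-16 and at 15013 and 7957 for CHLA-266. Both treated libraries lay below both untreated ones, with a log2 fold change of -0.69 (standard error, SE, 0.18, adjusted *p* = 0.0175 in edgeR). With upper-quartile scaling, library totals, and the receptor background subtracted, it was not called (adjusted *p* = 0.137, 0.0524, and 0.0737). *ADAR*, which edits double-stranded RNA and so keeps it from being sensed, was at 26152 and 18931 counts for BT-16 and at 23176 and 19142 for CHLA-266. Its log2 fold change of -0.12 did not exceed the spread between libraries (SE 0.16, adjusted *p* = 0.572 in edgeR). *IFIH1*, the long-RNA sensor MDA5, was at 0 and 34 counts for BT-16 and at 6 and 36 for CHLA-266. *DHX58*, the regulator LGP2 of the same family, was at 25 and 118 counts for BT-16 and at 42 and 96 for CHLA-266 (log2 fold change 1.89, adjusted *p* = 0.0555 in edgeR). *IFI16*, a DNA sensor, was at 2 and 30 counts for BT-16 and at 6 and 24 for CHLA-266. In these 3 genes the treated libraries lay above the untreated ones without passing the test. All 3 stayed under the 95th percentile of the receptor genes in both treated libraries, with *DHX58* the highest at 30.9 and 25.1 counts per kilobase.

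The transcription factors of the response were expressed before treatment. *STAT2* (ENSG00000170581, chromosome 12, 56341597 to 56360203, minus strand), a subunit of the factor that binds the ISRE, was at 2047 and 2694 counts for BT-16 and at 1575 and 2908 for CHLA-266. After normalization both treated libraries exceeded both untreated ones, by 1.86-fold on average (log2 fold change 0.89, SE 0.18, adjusted *p* = 0.00729 in edgeR). The log2 ratio was 0.65 for BT-16 (0.57 to 0.74, the exact 95% Clopper-Pearson interval of counting error) and 1.13 for CHLA-266 (1.04 to 1.22), and the call held under all 16 alternatives. *IRF1*, which binds the same element without STAT proteins, was at 284 and 378 counts for BT-16 and at 208 and 377 for CHLA-266. Its log2 fold change of 0.88 did not pass (adjusted *p* = 0.0757 in edgeR), but did with the cell line as a block (adjusted *p* = 0.0412, and 0.136 with the receptor background also subtracted). *IRF3*, which is switched on by sensors, and *IRF7*, which amplifies interferon production, had log2 fold changes of -0.10 and -0.12. *IRF9*, the DNA-binding partner of STAT2, was at 44 and 51 counts for BT-16 and at 75 and 94 for CHLA-266 (log2 fold change 0.53, adjusted *p* = 0.566 in edgeR). The levels of *IRF3* carry the limit that 19.3% of its exon bases overlap *BCL2L12* on the opposite strand.

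The ISG15 system attaches a small ubiquitin-like protein to other proteins. Of its 5 genes, 2 were upregulated, 1 was downregulated, and 2 were not called. *ISG15*, the modifier itself, was among the most abundant members, at 1845 and 1708 counts per kilobase for BT-16 before and after treatment and at 1926 and 1504 for CHLA-266. Its log2 fold change of 0.01 (SE 0.19, adjusted *p* = 0.967 in edgeR) lay well inside the spread between libraries. *UBA7*, the activating enzyme, was at 24 and 90 counts for BT-16 and at 28 and 74 for CHLA-266 (log2 fold change 1.89, adjusted *p* = 0.0698 in edgeR). *HERC5*, the main human ligase of ISG15, was at 7 and 73 counts for BT-16 and at 26 and 114 for CHLA-266 (log2 fold change 2.72, SE 0.89, adjusted *p* = 0.0429 in edgeR). *HERC6* (ENSG00000138642, chromosome 4, 88378739 to 88443097, plus strand), its close relative, was at 154 and 393 counts for BT-16 and at 144 and 284 for CHLA-266. Its treated libraries were 2.68-fold higher (log2 fold change 1.42, SE 0.38, adjusted *p* = 0.0209 in edgeR). *USP18* (ENSG00000184979, chromosome 22, 18150118 to 18177397, plus strand) removes ISG15 and blocks signaling at the interferon receptor, which makes it the main brake among the members. It was at 1154 and 478 counts for BT-16 and at 859 and 383 for CHLA-266, so the untreated libraries were 1.96-fold higher (log2 fold change -0.97, SE 0.26, adjusted *p* = 0.0202 in edgeR). The call ended with upper-quartile scaling (adjusted *p* = 0.0930), library totals (0.0620), and subtraction of the receptor background (0.0545).

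The IFIT proteins bind foreign RNA at its 5′ end and block its translation. Of the 4 *IFIT* genes, which lie side by side on chromosome 10, *IFIT1* and *IFIT2* were upregulated, *IFIT5* was downregulated, and *IFIT3* was not called. *IFIT1* (ENSG00000185745, 89392546 to 89406487, plus strand) was at 829 and 1330 counts for BT-16 and at 830 and 1800 for CHLA-266. Both untreated libraries held nearly the same count, and the treated ones were 2.26-fold higher (log2 fold change 1.18, SE 0.25, adjusted *p* = 0.00811 in edgeR), a call that held under all 16 alternatives. *IFIT2* (ENSG00000119922, 89283694 to 89309271, plus strand) was at 74 and 268 counts for BT-16 and at 126 and 603 for CHLA-266. It had the largest change among the upregulated members above the receptor background, 5.20-fold (log2 fold change 2.38, SE 0.54, adjusted *p* = 0.0109 in edgeR). *IFIT3* was at 11 and 82 counts for BT-16 and at 89 and 324 for CHLA-266. Its level differed between the cell lines, and the log2 fold change of 2.25 did not pass (adjusted *p* = 0.109 in edgeR), while it was 2.56 and passed with the cell line as a block (adjusted *p* = 0.000922, and 0.0607 with the receptor background also subtracted). *IFIT5* (ENSG00000152778, 89414568 to 89421605, plus strand) moved the other way, from 1608 to 704 counts for BT-16 and from 1292 to 632 for CHLA-266 (log2 fold change -0.86, SE 0.22, adjusted *p* = 0.0157 in edgeR), a call that the same scalings and the subtraction ended (adjusted *p* = 0.0912, 0.0529, and 0.0503). Before treatment *IFIT5* had 368 and 296 counts per kilobase for BT-16 and CHLA-266 against 180 and 180 for *IFIT1*, and after treatment 161 and 145 against 288 and 390, so the order of these neighbouring genes reversed in both cell lines.

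Membrane proteins that hold back virus entry or release included the most abundant member, and of these 4 genes 2 were downregulated and none was upregulated. *IFITM2* (ENSG00000185201, chromosome 11, 303655 to 309397, plus strand) and *IFITM3* (ENSG00000142089, chromosome 11, 319676 to 329475, minus strand) encode proteins that block fusion of viruses with endosomes. *IFITM2* fell from 5424 to 1205 counts for BT-16 and from 3726 to 749 for CHLA-266, so the untreated level was 3.95-fold higher (log2 fold change -1.98, SE 0.23, adjusted *p* = 0.000481 in edgeR). This was the smallest adjusted *p* of the 47 genes. *IFITM3* fell from 9425 to 3153 counts for BT-16 and from 5257 to 1596 for CHLA-266, with a 2.60-fold higher untreated level (log2 fold change -1.38, SE 0.30, adjusted *p* = 0.00912 in edgeR). The calls of both genes held under all 16 alternatives. The log2 ratio of *IFITM2* was -1.91 for BT-16 (-2.01 to -1.83) and -2.07 for CHLA-266 (-2.19 to -1.96), and that of *IFITM3* was -1.32 (-1.38 to -1.27) and -1.48 (-1.56 to -1.39). Each gene thus changed by a similar amount in both cell lines. *IFITM1*, which acts at the cell surface, was at 46 and 27 counts for BT-16 and at 169 and 41 for CHLA-266 (log2 fold change -1.44, adjusted *p* = 0.197 in edgeR). The IFITM genes are close copies of each other that can share reads, so the split of counts between them is uncertain. *BST2*, which tethers budding viruses to the cell, was the most abundant member, at 19114 and 13543 counts per kilobase for BT-16 and 13193 and 12794 in CHLA-266. Its log2 fold change was -0.03 (SE 0.18, adjusted *p* = 0.896 in edgeR), with a sign that depended on the scaling.

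The large GTPases trap viral particles and attack vacuoles of microbes. *MX1* (ENSG00000157601, chromosome 21, 41420020 to 41470071, plus strand), a classic marker of interferon exposure, was at 9 and 172 counts for BT-16 and at 2 and 34 for CHLA-266 (log2 fold change 4.43, SE 1.10, adjusted *p* = 0.0153 in edgeR). *MX2* was at 13 and 185 counts for BT-16 and at 8 and 52 for CHLA-266 (log2 fold change 3.70, SE 0.85, adjusted *p* = 0.0114 in edgeR). Although these were the largest log2 fold changes of called members with counts in both untreated libraries apart from *XAF1*, the treated levels were 9.56 and 1.89 counts per kilobase for *MX1* and 12.7 and 3.57 for *MX2*. All of these lay under the 95th percentile of the receptor genes. The exon lengths used, over all annotated exons, were 17984 bases for *MX1* and 14562 for *MX2*. A shorter length would give higher levels per kilobase and a smaller subtraction, and was not tried. Without the receptor background neither gene passed (adjusted *p* = 0.293 for *MX1* and 0.118 for *MX2*, edgeR). *GBP1* and *GBP2*, guanylate-binding proteins that respond mainly to interferon gamma, went in opposite directions in the cell lines. *GBP1* was at 371 and 112 counts for BT-16 and at 10 and 50 for CHLA-266, and exceeded the receptor percentile only in untreated BT-16 cells. *GBP2* was at 547 and 390 counts for BT-16 and at 81 and 366 for CHLA-266. Neither gene was called over both cell lines together (adjusted *p* = 0.532 and 0.509 in edgeR), and 8.60% of the exon bases of *GBP2* overlap *GBP7* on the same strand.

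The OAS enzymes make a short adenylate messenger that sets off the cutting of RNA. Of the 4 genes, the most abundant, *OAS3* (ENSG00000111331, chromosome 12, 112938051 to 112976460, plus strand), was downregulated. It fell from 973 to 256 counts for BT-16 and from 536 to 191 for CHLA-266, a 2.81-fold higher untreated level (log2 fold change -1.49, SE 0.35, adjusted *p* = 0.0118 in edgeR). In treated cells *OAS3* was at 14.2 and 10.6 counts per kilobase, under the 95th percentile of the receptor genes. At the exon length used, 18045 bases over all annotated exons, its lowered level could not be told from the background. The other 3 genes had few counts. *OAS1* was at 4 and 63 counts for BT-16 and at 14 and 37 for CHLA-266, and *OAS2* at 13 and 110 counts and at 40 and 70 counts. *OASL*, a relative without the enzyme activity, was at 0 and 89 counts for BT-16 and at 52 and 62 for CHLA-266. None of the 3 passed the test (adjusted *p* = 0.0887, 0.0916, and 0.364 in edgeR).

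Among the enzymes that act on nucleotides and RNA, *ISG20* was upregulated. *ISG20* (ENSG00000172183, chromosome 15, 88635670 to 88656483, plus strand) encodes an exonuclease that degrades single-stranded RNA, and was at 472 and 885 counts for BT-16 and at 610 and 1133 for CHLA-266. The change was 2.22-fold (log2 fold change 1.15, SE 0.29, adjusted *p* = 0.0175 in edgeR), and the log2 ratios of the cell lines were 1.16 (1.00 to 1.33) and 1.14 (0.99 to 1.28), with overlapping intervals. *RSAD2*, viperin, which makes a chain-ending nucleotide, was at 0 and 90 counts for BT-16 and at 26 and 130 for CHLA-266. It did not pass (adjusted *p* = 0.0853 in edgeR), but did with the cell line as a block (adjusted *p* = 0.00388, and 0.112 with the receptor background also subtracted). Its neighbour *CMPK2*, a mitochondrial nucleotide kinase, was at 54 and 54 counts for BT-16 and at 12 and 92 for CHLA-266, and the genes share 351 exon bases on opposite strands.

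*PARP9*, *DTX3L*, and *PARP14* work together in ADP-ribosylation of proteins during the response. *PARP14* was by far the most abundant of them, at 2753 and 3268 counts for BT-16 and at 2767 and 3013 for CHLA-266. The log2 fold change of 0.43 had an adjusted *p* of 0.0668 in edgeR, which was 0.0289 with the cell line as a block. *PARP9* was at 6 and 80 counts for BT-16 and at 8 and 44 for CHLA-266 (log2 fold change 3.34, SE 0.97, adjusted *p* = 0.0280 in edgeR). Its partner *DTX3L*, which shares a start region with it, was at 2 and 16 counts and at 0 and 17 counts, and was not called (adjusted *p* = 0.149 in edgeR).

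Of the 10 other effectors, 4 were upregulated and none was downregulated. *IFI35* (ENSG00000068079, chromosome 17, 43006740 to 43014456, plus strand), a leucine zipper protein that regulates sensor signaling, was at 410 and 654 counts for BT-16 and at 418 and 653 for CHLA-266. Both cell lines thus gave nearly equal counts in each condition, and the change was 1.88-fold (log2 fold change 0.91, SE 0.28, adjusted *p* = 0.0346 in edgeR). *XAF1*, a promoter of cell death, was at 6 and 76 counts for BT-16 and at 2 and 49 for CHLA-266 (log2 fold change 4.18, SE 1.06, adjusted *p* = 0.0168 in edgeR). *IFI44L*, a common marker of interferon signatures in blood, was at 9 and 44 counts for BT-16 and at 4 and 66 for CHLA-266. Its log2 fold change was 3.34 (SE 1.03, adjusted *p* = 0.0354 in edgeR), and it was no longer called with the cell line as a block (adjusted *p* = 0.0656). *EPSTI1* had 0 counts in both untreated libraries and 30 in each treated library, and was called upregulated (adjusted *p* = 0.0239 in edgeR). Its treated level of 6.09 counts per kilobase in both cell lines lay under the pooled level of the receptor genes, 8.38 for BT-16 and 6.24 for CHLA-266, so no fold is given. *IFI6*, a mitochondrial survival factor, was the most abundant of this group, at 652 and 622 counts per kilobase for BT-16 and 866 and 810 for CHLA-266 (log2 fold change 0.16, adjusted *p* = 0.688 in edgeR). The growth regulators *SAMD9* and *SAMD9L*, the ubiquitin ligase *TRIM22*, and *IFI44* were between 0 and 40 counts before and between 8 and 62 counts after treatment, and did not pass. *IFI27* was at 24 and 111 counts for BT-16 and at 86 and 30 for CHLA-266, again in opposite directions. It exceeded the 95th percentile of the receptor genes only in untreated CHLA-266 cells.

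**Figure D4:**
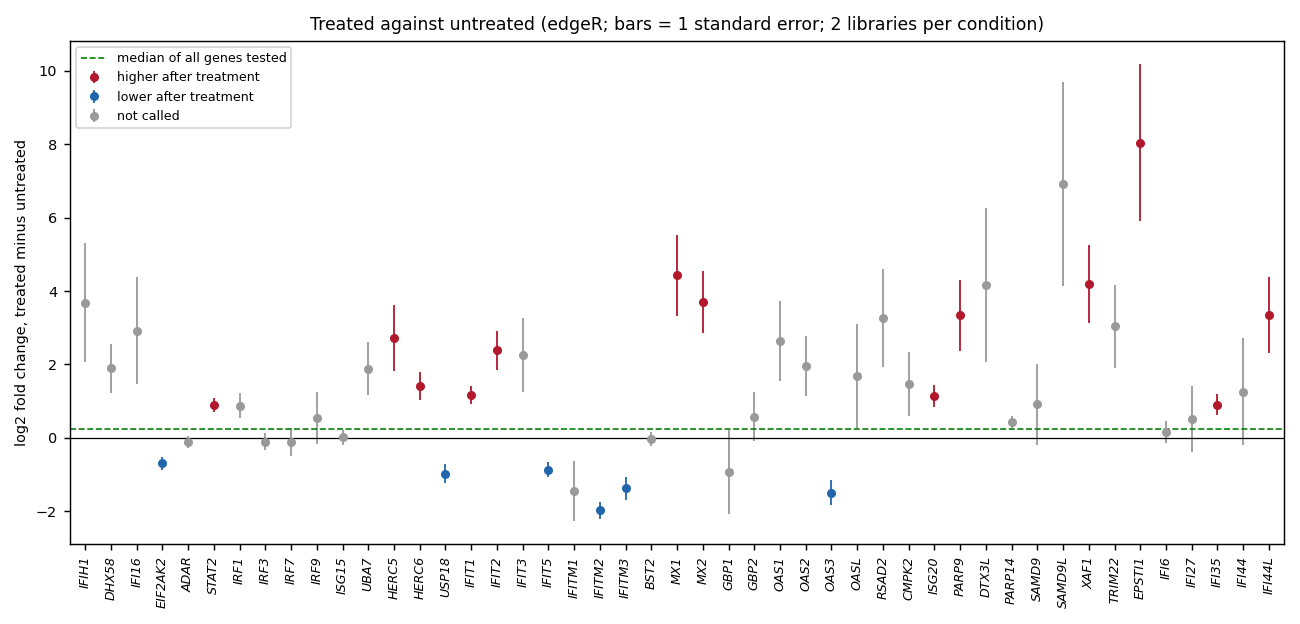
Log2 fold change of each of the 47 members after treatment (vertical axis, treated minus untreated, edgeR), ordered by role, with bars of 1 standard error and 2 libraries per condition. Red points were upregulated, blue points downregulated, and grey points not called, and the dashed line marks the median of all genes at 0.24. The blue points lie between -1.98 and -0.69 with short bars, while the red and grey points of the largest change have long bars, and the values of *EPSTI1* and *SAMD9L* rest on untreated libraries with 0 counts and are no bounds.

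Within the cell lines, where 1 library per condition allows no test, the members had a median log2 ratio of 1.16 for BT-16 and 1.14 for CHLA-266. The ratio was above 0 in both cell lines for 32 members (48.5% of all genes tested) and below 0 in both for 10 (36.1% of all genes). The remaining 5 members, *ISG15*, *BST2*, *GBP1*, *GBP2*, and *IFI27*, had opposite signs, as did 15.4% of all genes. The normalized counts of the conditions did not overlap for 28 members that were higher and 7 that were lower after treatment, against 40.2% and 32.3% of all genes. Of the 47 members, 41 were detected in every library and 31 had at least 10 counts in every library.

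**Figure D5:**
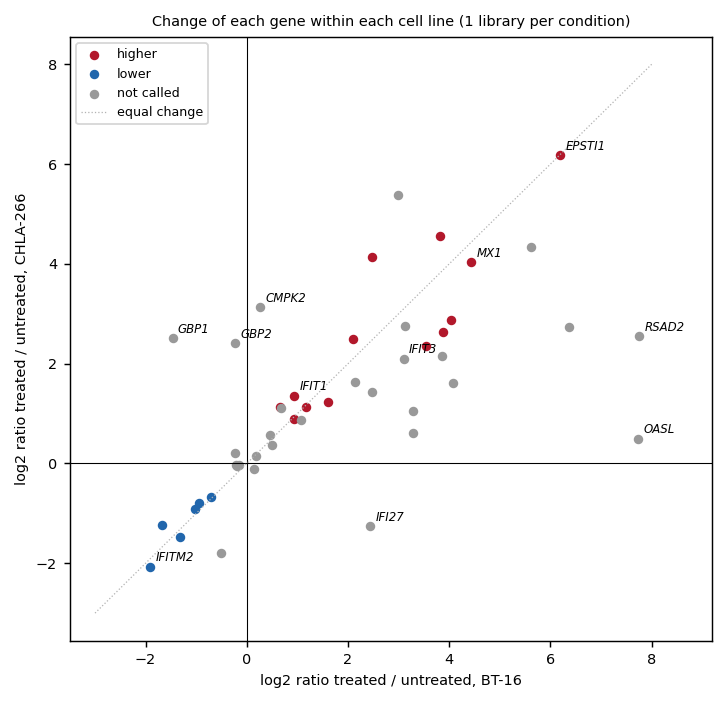
Log2 ratio of treated to untreated normalized counts in BT-16 (horizontal axis) and CHLA-266 (vertical axis) for the 47 members, with 1 library per condition and the dotted line where both changes are equal. The downregulated genes (blue) and *IFIT1* lie near the line, *RSAD2* and *OASL*, which had 0 counts in untreated BT-16 cells, lie far to the right, and *GBP1*, *GBP2*, and *IFI27* lie in the quadrants of opposite sign.

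Between the cell lines, with the condition in the model, 2 of the 47 members differed at that threshold in edgeR, against 2.3% of all genes tested (0.836% higher and 1.46% lower in CHLA-266). *IFIT3* was higher for CHLA-266 (log2 difference 2.59, adjusted *p* = 0.0129) and *IFITM3* was lower for CHLA-266 (log2 difference -0.75, adjusted *p* = 0.00317, both edgeR). *GBP1* had the largest difference without passing, with 371 counts in untreated BT-16 and 10 in untreated CHLA-266 cells (log2 difference -2.88, adjusted *p* = 0.0562 in edgeR), and it passed with DESeq2 size factors, upper-quartile scaling, and library totals. At an unadjusted *p* value under 0.05, 9 members differed, against 10% of all genes. Without the condition in the model none of the members passed, and *IFIT3* was lost under both filters on low counts.

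The rest of the interferon pathway was described by lists of other genes, beside 16.1% of all genes upregulated and 19.1% downregulated. Of 21 interferon genes themselves, 15 had counts and 1 was upregulated, *IFNL3*, an interferon lambda, with 0 and 56 counts for BT-16 and at 0 and 8 for CHLA-266. None of the interferon genes exceeded the 95th percentile of the receptor genes in both treated libraries. In treated BT-16 cells alone, *IFNL1* and *IFNL3* exceeded it, at 56.8 and 56.6 counts per kilobase against 41.3. *IFNL1* was at 2 and 44 counts for BT-16, had 0 counts in both CHLA-266 libraries, and was not called (adjusted *p* = 0.187 in edgeR). Of 10 receptors, kinases, and STAT genes, 2 were upregulated and 2 downregulated. The kinase *JAK2* was at 1526 and 2775 counts for BT-16 and at 1443 and 2697 for CHLA-266 (log2 fold change 1.13, adjusted *p* = 0.00178 in edgeR). The kinase *TYK2* of the type I receptor fell from 6238 to 2420 counts for BT-16 and from 3973 to 2388 for CHLA-266 (log2 fold change -0.82, adjusted *p* = 0.0129 in edgeR). The interferon gamma receptor chain *IFNGR2* was also downregulated (-0.94, adjusted *p* = 0.00824 in edgeR). *IFNLR1*, a receptor chain for interferon lambda, was upregulated from 2 counts in each untreated library to 79 and 24 counts, under the receptor-gene background. Of 7 feedback inhibitors 1 was upregulated, the phosphatase gene *PTPN6* (0.77, adjusted *p* = 0.0311 in edgeR).

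Of 18 further genes of nucleic acid sensing, 17 were tested, 3 were upregulated, and 4 were downregulated, against 16.1% and 19.1% of all genes. *RIGI*, the RNA sensor related to *IFIH1* and *DHX58*, was at 116 and 428 counts for BT-16 and at 202 and 728 for CHLA-266 (log2 fold change 2.11, adjusted *p* = 0.00892 in edgeR). *CGAS*, the cytosolic DNA sensor, fell from 2043 to 758 counts for BT-16 and from 2529 to 741 for CHLA-266 (log2 fold change -1.37, adjusted *p* = 0.00256 in edgeR). *RNASEH2B* and *RNASEH2C*, subunits of an enzyme that removes RNA from DNA, and *SAMHD1*, which degrades nucleotides, were downregulated as well. *ZBP1*, a sensor of nucleic acids in the Z form, was upregulated from at most 9 counts. Of 36 other interferon-induced genes, 8 were upregulated and 4 downregulated, against 16.1% and 19.1% of all genes, with a median log2 fold change of 0.75. The upregulated ones were *APOL2* (1.16), *STAT3* (1.33), *C1R* (1.03), and *PML* (0.59), which exceeded the 95th percentile of the receptor genes in both treated libraries, and *CCL5*, *SP100*, *NMI*, and *PARP10*, which did not. The downregulated ones were *LY6E* (-1.61), *PLSCR1* (-2.60), *TRIM14* (-0.85), and *ZC3HAV1* (-0.48). The study assigned 57 further genes to an interferon response state of tumor nuclei. Of these, 18 were upregulated and 6 downregulated, against 16.1% and 19.1% of all genes, with a median log2 fold change of 0.62. Of the 18, 12 exceeded the receptor percentile in both treated libraries. Among them the antigen-presentation genes *TAP1* (1.60) and *TAPBP* (0.86) were upregulated.

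As a check for other cell types, 4 of 16 leukocyte markers were called upregulated after treatment, against 16.1% of all genes. Of all genes at or under the mean receptor percentile, 24.1% were upregulated. Among the 4 were *CD163*, *LAPTM5*, and *C1QA*. The other 12 were not called. Of these, *CD68*, *FCER1G*, and *PTPRC* had negative log2 fold changes (-3.95, -1.43, and -0.17) and the rest positive ones. The summed level of the 16 markers was 6.93 and 14.4 CPM before and after treatment for BT-16 and 4.16 and 8.95 CPM for CHLA-266. None exceeded the 95th percentile of the receptor genes in both treated libraries, and between 1 and 5 of the 16 markers were at 0 in each library. Some exceeded it in single libraries. These were *CSF1R* in every library but treated CHLA-266 (29.3 to 50.7 counts per kilobase) and *PTPRC* in untreated BT-16 (18.6). *FCER1G* and *NKG7* did in untreated CHLA-266 (17.6 and 8.69), and *TYROBP* in treated CHLA-266 (30.9). Of 10 fibroblast and endothelial markers, 3 were upregulated (*VWF*, *CDH5*, and *KDR*) and *COL1A2* was downregulated, against 16.1% and 19.1% of all genes. The 3 upregulated markers stayed under the 95th percentile of the receptor genes in both treated libraries. The highest of them, *VWF*, was at 39.0 counts per kilobase in treated BT-16 and 20.8 in treated CHLA-266 cells. The part of these markers in the results of the 47 members was not tested.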

How the data were processed

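RNA was extracted with Trizol, and 10 ng per sample was used for the SMART-Seq Stranded kit. Per the methods, the authors trimmed reads with Skewer 0.2.2, used STAR on hg38, and assigned symbols with biomaRt 2.62.0. The authors deposited estimated counts per gene without normalization, of which 5 in 2 genes had decimals and were rounded here. The authors also deposited log2 values, which are the same counts after the variance-stabilizing transformation, for 17553 genes with a total of at least 10.

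After 383 symbols with a total of 0 were left out, 18066 genes were fitted with edgeR 4.0.16 in R 4.3.3 (quasi-likelihood test, TMM normalization, *p* values adjusted by Benjamini-Hochberg, no term for the cell line). A standard error is the log2 fold change divided by the square root of F. The cell line itself pairs the libraries, and deviations from the mean of the condition correlated between a line's libraries (0.263 over 12620 genes). Alternatives were a block for the cell line, DESeq2 1.42.0, limma 3.58.1 on the deposited log2 values, other scalings and filters, and each library left out. Halved counts and subtraction of the receptor background per kilobase were added after seeing the data. Within cell lines, 0.5 counts were added before log2 ratios, with 95% intervals. Exon lengths, over the union of all annotated exons of a gene, and coordinates are from GENCODE 44. The members and gene lists were chosen with earlier results of these data known. Values are given for members past the threshold and for the most abundant by counts per kilobase, and in shorter form for the others. Promoters are printed for the 4 called members of smallest *p* with a match. A few genes of the other lists count toward their totals but are not reported here by name.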

Additional observations from a re-analysis of the deposited data

Results flagged for a closer look

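For 5 of the 47 interferon-stimulated genes the treated library lay above the untreated one in one cell line and below it in the other, with both counting intervals (exact Clopper-Pearson, 95%) on their own side of 0. The difference between the cell lines was not tested, because each line had 1 library per condition. The log2 ratio of *GBP1* was -1.47 in BT-16 (-1.79 to -1.16) and 2.51 in CHLA-266 (1.57 to 3.71). For *GBP2* it was -0.23 in BT-16 (-0.42 to -0.04) and 2.41 in CHLA-266 (2.07 to 2.79). *GBP1* and *GBP2* thus shared their direction within each cell line. For *IFI27* it was 2.44 in BT-16 (1.82 to 3.17) and -1.26 in CHLA-266 (-1.93 to -0.66). *GBP1* exceeded the 95th percentile of the receptor genes only in untreated BT-16 cells, and *IFI27* only in untreated CHLA-266 cells. The rises of *GBP1* in CHLA-266 (1.64 to 8.19 counts per kilobase) and *IFI27* in BT-16 (5.79 to 26.8) thus stayed under that percentile. The abundant genes *ISG15* (0.14 for BT-16 and -0.11 for CHLA-266) and *BST2* (-0.24 and 0.20) differed in sign by smaller amounts. Over both cell lines their log2 fold changes were 0.01 and -0.03, and 0.36 and 0.32 with upper-quartile scaling. Ratios within a cell line were not computed under other scalings, so these signs may depend on it. If each read of a pair was counted, the intervals are too narrow. Opposite signs were found in 15.4% of all genes tested.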

How the results depend on the processing

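Of the 19 called members, *STAT2*, *IFIT1*, *IFITM2*, and *IFITM3* passed the threshold under all 16 alternatives. All 19 kept their sign in every alternative in which they were fitted. *HERC5*, *MX1*, *MX2*, *PARP9*, and *XAF1* were fitted in 15 alternatives, and *EPSTI1* and *IFI44L* in 13. With the cell line as a replicate block, 16 members were upregulated and 6 downregulated, against 17.9% and 23.7% of all genes (*IRF1*, *IFIT3*, *RSAD2*, and *PARP14* gained, *IFI44L* lost), the median log2 fold change was 1.15, and that of *GBP1* reversed to 0.32. Upregulated and downregulated members (with the shares of all genes) numbered 19 and 6 with DESeq2 (23.1% and 19.9%), 18 and 6 with DESeq2 and the block (20.5% and 19.8%), 21 and 6 with limma (20.7% and 18%), 18 and 3 with upper-quartile scaling (24.1% and 10.5%), 16 and 3 with library totals (20.4% and 13%), 11 and 6 with at least 10 counts in every library (17.9% and 20.2%), 7 and 3 with the receptor background subtracted (13.5% and 14.1%), and 7 and 6 with that and the block (13.8% and 16.5%). The member counts thus moved together with the shares of all genes under the scalings. With at least 10 counts in every library, only 31 members were fitted. Of the 13 upregulated calls 6 were kept there, and *DHX58*, *IRF1*, *UBA7*, *OAS2*, and *PARP14* were gained. After the subtraction 40 members were fitted. *EIF2AK2*, *USP18*, and *IFIT5* were not called with upper-quartile scaling, library totals, or the subtraction. Leaving out 1 library gave 6 to 13 upregulated and 3 to 6 downregulated members, against 11.2% to 13.9% and 12.9% to 18.8% of all genes, and medians of 0.88 to 1.46. The counts were lowest without treated CHLA-266 cells (6 upregulated, against 13.9% of all genes) and without untreated BT-16 cells (7 upregulated and 3 downregulated).

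Medians of the members were 1.24 with DESeq2, 1.22 with DESeq2 and the block, 1.24 with DESeq2 size factors, 1.52 with upper-quartile scaling, 1.39 with library totals, 0.70 with at least 10 counts, 1.19 with the edgeR filter, 0.54 on the deposited log2 scale, 0.80 after subtraction, 1.03 with subtraction and block, and 1.20 with halved counts. The median of all genes was 0.31 with DESeq2 size factors, 0.59 with upper-quartile scaling, and 0.46 with library totals, so values near 0 depend on the scaling. *BST2* reversed to 0.037 (DESeq2), 0.047 (DESeq2 with block), 0.037 (size factors), 0.32 (upper quartile), 0.20 (totals), 0.15 (10 counts), 0.0027 (edgeR filter), 0.046 (log2 values), 0.22 (subtraction), and 0.23 (subtraction with block). *ADAR*, *IRF3*, and *IRF7* reversed to 0.23, 0.25, and 0.23 (upper quartile), 0.11, 0.13, and 0.11 (totals), 0.062, 0.086, and 0.063 (10 counts), 0.12, 0.13, and 0.032 (subtraction), and 0.12, 0.13, and 0.029 (subtraction with block). *GBP1* reversed to 0.51 (DESeq2 with block) and 0.50 (subtraction with block), *IRF9* to -0.16 and -2.12 (subtraction without and with block), and *IFI27* to -0.28 (subtraction with block). With each library left out, the signs of *IRF3* (-0.29 to 0.11), *ISG15* (-0.10 to 0.13), *BST2* (-0.21 to 0.16), *GBP1* (-1.89 to 3.14), *IFI6* (-0.12 to 0.48), *IFI27* (-0.60 to 1.84), *IRF7* (-0.25 to 0.012), *GBP2* (-0.20 to 2.39), *IRF9* (-0.064 to 1.07), and *SAMD9* (-0.34 to 2.36) changed. The cause was not tested.

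Between the cell lines, the 1 member higher and 1 lower in CHLA-266 became 0 and 0 without the condition in the model, 1 and 3 with DESeq2 size factors, 1 and 2 with upper-quartile scaling, 1 and 3 with library totals, 0 and 1 with at least 10 counts, and 0 and 1 with the edgeR filter. Leaving out a library was not run there, since no residual degrees of freedom remain.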
